A study of Homo sapiens with 4 samples.

Results

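RAB GTPase genes were followed in MDA-MB-231 cells treated with Neoribocic or with the solvent DMSO. A gene was a member when its Ensembl ID mapped to a protein-coding symbol made of RAB, a number and at most a letter and a digit, and 63 of the 20263 rows of the count table met this rule. RAB proteins are small GTPases that mark the membranes of the cell's transport routes. They are loaded with GTP by exchange factors (GEFs), recruit effectors such as tethers and motors while GTP-bound, and are switched off by GTPase-activating proteins (GAPs), most of which carry a TBC domain. A prenyl anchor added with the help of the escort proteins CHM and CHML holds them on membranes, and the GDI proteins take them off again. Of the members, 16 were classed as endosomal, 27 as secretory, 10 as lysosomal (late endosome, lysosome, lysosome-related organelle or autophagosome) and 10 as acting at other sites.

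MDA-MB-231 is an established line of human triple-negative breast cancer cells, and messenger RNA was sequenced after 24 h. The 2 groups were cells with DMSO and cells with Neoribocic, each with 2 libraries, and both were kept in DMEM with serum and antibiotics. The treatment protocol calls the compound Rib_CA where the sample names say Neoribocic. They are read here as the same compound, whose dose is not known here. Whether a group's libraries came from separate cultures is not in the labels. The p-values therefore measure the spread between these libraries alone, which may be technical.

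The 4 libraries held 34774542 to 43014212 counts. Levels are given as CPM, counts scaled to a common library size, after TMM factors had adjusted for the composition of each library. Mitochondrially encoded genes took 21.7% of the counts of DMSO replicate 2, against 5.76% to 8.68% in the other libraries. All 11 markers fixed for the line (VIM, CD44 and AXL among them) were above 1 CPM in each library. Of 10 luminal markers 7 were also above 1 CPM in each library, while CDH1 and ESR1 were below 1 CPM. The summed level of the 10 was 605 to 825 CPM, and 6 leukocyte markers together did not exceed 1.18 CPM. Of 6 fibroblast markers 5 were below 1 CPM.

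Of the 63 RAB genes, 55 passed the low-count filter, and 11 of these passed edgeR's quasi-likelihood test at a Benjamini-Hochberg adjusted p below 0.05. With Neoribocic 7 rose (RAB24, RAB32, RAB43, RAB34, RAB2B, RAB3D and RAB21) and 4 fell (RAB27B, RAB9B, RAB15 and RAB8A). This is 20% of the tested RAB genes, where 40.4% of all 13879 tested genes were called, 19.1% as higher and 21.3% as lower. The median log2 fold change of the RAB genes was 0.12 and that of all tested genes 0.01, and the median size regardless of sign was 0.42 against 0.65. In 36 RAB genes, or 65.5%, the libraries of the groups did not overlap, against 75.1% of all tested genes. In bulk RNA, fewer cells of a kind and less RNA per cell cannot be told apart.

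Those counts moved with the scaling and with single libraries. The calls were 12 higher and 3 lower with upper-quartile factors and 10 and 3 with library totals, scalings that raised the median of all genes by 0.12 and 0.17. Among all genes higher calls were 47.2% of the calls under TMM, 56.8% under the upper-quartile scaling and 59.6% under totals alone. Without Neoribocic replicate 1 the RAB calls were 2 higher and 3 lower, and without DMSO replicate 1 they were 5 and 7. Without DMSO replicate 2, the library rich in mitochondrial counts, they were 5 and 3. In these fits the share of all tested genes called was also smaller, at 17.5%, 28.2% and 28.6%. RAB15, RAB24, RAB27B, RAB32 and RAB9B kept their call in each of the 4 fits that left out a library, and in all 18 alternative fits. None of the 11 called members changed sign in any of these, and 25 of the 44 tested members without a call did in at least 1. Calls select values far from 0 for their SE, and the fits share libraries, so this contrast is no separate support.

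**Figure D1:**
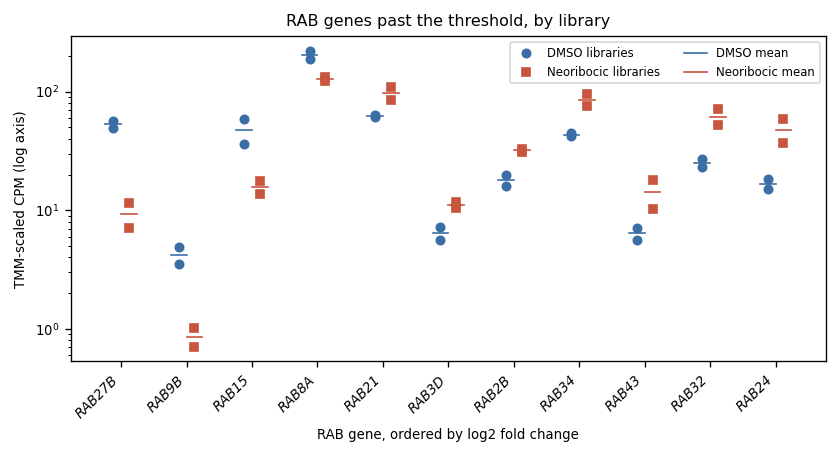
TMM-scaled CPM (log axis) of the 11 RAB genes past the threshold, ordered by log2 fold change. Each point is a library and each line a group mean. In none of the 11 genes did the DMSO and Neoribocic libraries overlap, and RAB27B, RAB9B, RAB15 and RAB8A lay lower with Neoribocic.

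By level, the family was uneven. Per kilobase of transcript, RAB1B, which starts the ER-to-Golgi step, was the highest. It was at 195 and 232 CPM per kb in the DMSO libraries and 394 and 270 in the Neoribocic libraries. Of the exon bases of RAB1B 42.6% overlap a gene on the opposite strand, and the use of strand is unknown here. RAB7A, the switch of late endosome to lysosome fusion, followed at 171 and 245 CPM per kb with DMSO and 188 and 202 with Neoribocic. The order of RAB1B and RAB7A was not separated by the spread of the DMSO libraries, since their ranges overlapped. RAB5C (early endosome) and RAB11B (recycling endosome) came next, at means of 93.4 and 86.1 CPM per kb over the 4 libraries, again with overlapping ranges. Below them stood RAB13, RAB8A, RAB10 and RAB35, whose order differed between the groups. RAB8A, at 66.3 and 77.7 CPM per kb with DMSO, was above RAB13 (63.9 and 62.4) there. With Neoribocic RAB8A was at 46.6 and 43.9 and RAB13 at 69.0 and 65.1, beside RAB10 at 46.6 and 46.4.

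At the other end, 8 members did not pass the filter: RAB3B, RAB3C, RAB19, RAB33A, RAB39B and RAB41 among the secretory genes, RAB25 among the endosomal and RAB44 among the others. None of them exceeded 13 counts in a library or 0.282 CPM, and RAB19 and RAB44 were at 0 counts in all 4. Another 3 tested members, RAB6C, RAB7B and RAB17, averaged under 1 CPM. RAB6C and RAB6D are near-identical copies of RAB6A, so their counts depend on how shared reads were assigned.

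Summed per kilobase over all members, RAB transcripts came to 1227 and 1340 CPM per kb with DMSO and to 1509 and 1340 with Neoribocic. Endosomal members made up 30.8% and 28.6% of this sum with DMSO and 25.3% and 25.4% with Neoribocic. Secretory members held 42.2% in both DMSO libraries and 45.5% and 42.7% in the Neoribocic ones. Lysosomal members held 21.2% and 24.4%, then 23.0% and 25.4%. The other sites held 5.7% and 4.75%, then 6.23% and 6.56%. The endosomal share was lower, and the secretory and other-site shares higher, in both Neoribocic libraries than in both DMSO libraries. The ranges of the lysosomal share overlapped. The secretory sum held RAB1B, at 194.6 and 232.2 CPM per kb with DMSO and 394.4 and 269.6 with Neoribocic. Without RAB1B the secretory share would be lower, not higher, in both Neoribocic libraries. RAB1B was not called, and its log2 fold change was 0.00 once corrected for length and GC content. The endosomal sums themselves overlapped, at 377.7 and 383.5 CPM per kb with DMSO and 381.4 and 339.8 with Neoribocic. With 2 libraries against 2, an exact two-sided permutation test cannot give a p below 0.333, and none was run on these shares.

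Among the 15 tested endosomal RAB genes, RAB15 fell and RAB21 rose. RAB15 (ENSG00000139998), which acts in endocytic recycling, stood at 58.8 and 36.2 CPM with DMSO and at 13.7 and 17.6 CPM with Neoribocic. Both treated libraries lay below both controls, and the log2 fold change was -1.60 ± 0.29 (SE; edgeR adjusted p = 0.00419). RAB21 (ENSG00000080371), a regulator of integrin traffic through early endosomes, stood at 61.4 and 63.5 CPM with DMSO and 85.4 and 109.6 CPM with Neoribocic. The log2 fold change of RAB21 was 0.64 ± 0.21 (edgeR adjusted p = 0.0384). That call rested on all 4 libraries: leaving out any of them gave an edgeR adjusted p of 0.0563 to 0.194, and adding the replicate number as a block gave 0.0551.

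The remaining 13 endosomal members did not pass, with log2 fold changes from -0.42 to 0.64. RAB35, which acts in fast recycling and cytokinesis, was at 100.1 and 117.5 CPM with DMSO and 174.9 and 137.1 with Neoribocic (0.52 ± 0.21, edgeR adjusted p = 0.0755). The early endosome genes RAB5A, RAB5B and RAB5C stood at -0.40, 0.32 and -0.19, and the recycling genes RAB11A and RAB11B at 0.21 and -0.42. RAB4B and RAB20 were at 0.64 and 0.56, and at -0.08 and -0.10 once corrected for length and GC content. Of the exon bases of RAB4B 36.8% lie in another gene on the same strand. RAB31, a RAB of endosome to Golgi exchange, differed widely within a group, at 6.71 and 33.8 CPM in the DMSO libraries against 24.2 and 28.7 with Neoribocic. Its log2 fold change of 0.39 became -0.35 without DMSO replicate 1. Without DMSO replicate 2 it was 1.99, past the threshold (edgeR adjusted p = 0.00712). RAB11A also split by library, at 64.0 and 23.0 CPM with DMSO and 64.9 and 35.8 with Neoribocic. The log2 fold change of RAB11A was 1.13 without DMSO replicate 1 and 0.58 without Neoribocic replicate 2, and it turned to -0.33 without DMSO replicate 2 and -0.27 without Neoribocic replicate 1. RAB11B passed at -0.74 with DMSO replicate 1 left out (edgeR adjusted p = 0.0447), and was at 0.02 with DMSO replicate 2 left out.

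Of 21 tested secretory members 3 rose and 2 fell. The largest uncorrected change of any RAB gene was the fall of RAB27B (ENSG00000041353), which with RAB27A docks secretory granules and exosome-forming endosomes at the plasma membrane. RAB27B went from 56.5 and 49.3 CPM with DMSO to 7.02 and 11.5 CPM with Neoribocic. Every treated library was far under every control, with a log2 fold change of -2.52 ± 0.29 and an edgeR adjusted p of 8.81e-04. RAB8A (ENSG00000167461), which moves carriers from the trans-Golgi network to the plasma membrane and the cilium, was at 187.5 and 219.7 CPM with DMSO and 131.8 and 124.2 CPM with Neoribocic. The log2 fold change of RAB8A was -0.67 ± 0.19 (edgeR adjusted p = 0.0232), and 37.8% of its exon bases overlap a gene on the opposite strand. RAB8A lost its call when DMSO replicate 2 (edgeR adjusted p = 0.105) or 1 of the Neoribocic libraries (0.0998 and 0.0999) was left out, and with upper-quartile factors (0.0509) or library totals (0.0976).

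The secretory genes that rose were low to moderate in level. RAB2B (ENSG00000129472), a Golgi RAB, was at 16.0 and 19.9 CPM with DMSO and 33.0 and 31.0 with Neoribocic, a log2 fold change of 0.83 ± 0.23 (edgeR adjusted p = 0.0211). RAB43 (ENSG00000172780), of ER and Golgi traffic, was at 7.13 and 5.64 CPM with DMSO and 18.0 and 10.3 with Neoribocic, or 1.15 ± 0.32 (edgeR adjusted p = 0.0222). Of its exon bases 79.3% lie in another gene on the same strand, so that its counts depend on how shared reads were handled. RAB3D (ENSG00000105514), of regulated exocytosis, was at 7.28 and 5.64 CPM with DMSO and 10.5 and 11.7 with Neoribocic, or 0.78 ± 0.26 (edgeR adjusted p = 0.0419). In all of them both treated libraries lay above both controls. RAB2B lost its call with DMSO replicate 1 (edgeR adjusted p = 0.102) or 1 of the Neoribocic libraries (0.0954 and 0.0543) left out. RAB43 lost it without DMSO replicate 1 (0.0562), DMSO replicate 2 (0.110) or Neoribocic replicate 1 (0.191, where its log2 fold change was 0.70), and RAB3D lost it with DMSO replicate 2 (0.134) or 1 of the Neoribocic libraries (0.120 and 0.159) left out.

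RAB30, a Golgi RAB, lay nearest outside the threshold. It was at 23.3 and 46.9 CPM with DMSO and 12.1 and 19.6 with Neoribocic, a log2 fold change of -1.15 ± 0.39 (edgeR adjusted p = 0.0549). RAB30 passed with the replicate number as a block (0.00251), with DESeq2 (adjusted p = 0.0132), without edgeR's robust option (0.0465), without DMSO replicate 1 (0.0171) and without Neoribocic replicate 2 (0.0492). Without DMSO replicate 2 its log2 fold change was -0.55. RAB1B was at 390.6 and 466.0 CPM with DMSO and 791.5 and 541.0 with Neoribocic, or 0.64 ± 0.24 (edgeR adjusted p = 0.0595). Its log2 fold change was 0.35 without Neoribocic replicate 1, and it passed without Neoribocic replicate 2 (0.89, edgeR adjusted p = 0.0326). RAB1B also passed with upper-quartile factors (0.0287), library totals (0.0135), DESeq2 (0.0413) and no low-count filter (0.0471). Of the 16 secretory members not called, 12 lay within 0.5 of 0, among them RAB6A (-0.07), RAB10 (-0.04) and RAB13 (0.09), which keep Golgi and exocytic traffic running.

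All 10 lysosomal members were tested, of which 2 rose and 1 fell. RAB24 (ENSG00000169228), found on autophagosomes, was at 15.2 and 18.2 CPM with DMSO and 58.6 and 36.6 CPM with Neoribocic. Its rise was the largest in the family before the correction for length and GC content, at 1.51 ± 0.28 (edgeR adjusted p = 0.00442), and 44.8% of its exon bases lie in another gene on the same strand. RAB32 (ENSG00000118508), which serves lysosome-related organelles and mitochondria, was at 26.9 and 23.0 CPM with DMSO and 70.8 and 52.7 with Neoribocic, or 1.30 ± 0.24 (edgeR adjusted p = 0.00409). RAB9B (ENSG00000123570), a relative of the RAB9A that returns receptors from late endosomes to the Golgi, fell from 4.91 and 3.54 CPM to 0.706 and 1.01 CPM. That is a log2 fold change of -2.29 ± 0.37 (edgeR adjusted p = 0.00259), measured on 174 and 116 counts with DMSO and 30 and 48 with Neoribocic. None of these groups of libraries overlapped.

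The core late endosome gene RAB7A did not pass, at 384.1 and 550.6 CPM with DMSO and 422.0 and 453.1 with Neoribocic (-0.10 ± 0.22, edgeR adjusted p = 0.755). The other lysosomal members without a call ran from -0.87 for RAB39A, near 1 CPM, to 0.46 for RAB12, which acts between endosomes and lysosomes. RAB29, a recruiter of the kinase LRRK2, was at 0.38 and RAB38, the closest relative of RAB32, at -0.20.

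Of the 9 tested members of other sites, RAB34 rose and none fell. RAB34 (ENSG00000109113), of the Golgi and of cilium formation, was at 44.7 and 42.1 CPM with DMSO and 95.8 and 75.7 with Neoribocic. Its log2 fold change was 0.98 ± 0.21 (edgeR adjusted p = 0.00820), and 0.81 without Neoribocic replicate 1 (0.0624). RAB42, a little-studied member, lay just outside the threshold on 31 to 90 counts a library. It was at 0.874 and 1.04 CPM with DMSO and 2.02 and 1.90 with Neoribocic, a log2 fold change of 1.04 ± 0.38 (edgeR adjusted p = 0.0565). It passed with upper-quartile factors (0.0381), library totals (0.0375), the CPM filter (0.0332), halved counts (0.0440) and equal totals (0.0410). RAB23, a cilium gene of Hedgehog signalling, was at -0.48 (edgeR adjusted p = 0.0885). A gene on the opposite strand covers 57.7% of its exon bases. RAB18, of the ER and lipid droplets, was at -0.02. The remaining members of this group, RAB28, RAB36, RAB40A, RAB40B and RAB40C, ran from -0.44 for RAB36 to 0.90 for RAB40A. Without DMSO replicate 1 both passed, RAB36 at -0.92 and RAB40A at 1.48 (edgeR adjusted p = 0.0485 and 0.0386). Without DMSO replicate 2 they were at 0.28 and 0.50.

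Set side by side, 2 of 15 endosomal members (13.3%), 5 of 21 secretory (23.8%) and 3 of 10 lysosomal (30%) were called, against 40.4% of all tested genes. The median log2 fold changes were 0.21, 0.06 and 0.04, and 0.15 at other sites. The endosomal, secretory and lysosomal groups each held calls in both directions, the endosomal rise being RAB21 alone, and no member of the other sites fell. Without Neoribocic replicate 1 the calls numbered 1, 1 and 3, and without DMSO replicate 2 they numbered 2, 2 and 3. With the length and GC correction described below, 40% of endosomal, 33.3% of secretory and 50% of lysosomal members were called. The share of all tested genes called in that fit was 36.1%. The medians are descriptions and the differences between compartments were not tested.

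**Figure D2:**
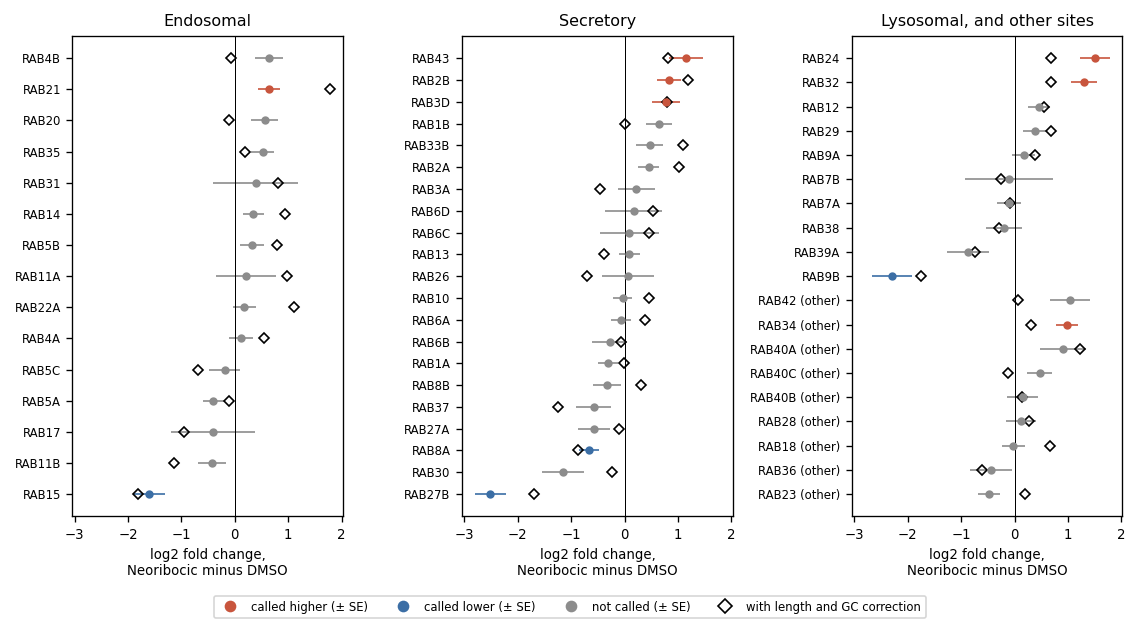
Log2 fold change (Neoribocic minus DMSO) of the 55 tested RAB genes by compartment, with bars of 1 SE from edgeR, and the same value once corrected for length and GC content of the transcript (open diamonds). Called genes lie on both sides of 0 in the endosomal, secretory and lysosomal groups, from RAB27B at -2.52 to RAB24 at 1.51.

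Fold changes in these libraries followed the length and GC content of transcripts, so each was also fitted after a smooth correction for both. Across 55 RAB genes the Spearman correlation of log2 fold change was -0.17 with length and 0.30 with GC content, against -0.40 and 0.45 across 13862 genes; genes share the same 4 libraries and are not independent replicates. With the correction 13 RAB genes were higher and 6 lower, or 34.5%, close to the 36.1% of all genes called by that fit. The 9 genes RAB15, RAB21, RAB24, RAB27B, RAB2B, RAB32, RAB3D, RAB8A and RAB9B kept their call and direction. By size RAB15 (-1.82), RAB21 (1.79) and RAB9B (-1.75) then came before RAB27B (-1.69). RAB34 and RAB43 did not pass, at 0.31 and 0.81 (edgeR adjusted p = 0.129 and 0.0764). RAB24 and RAB32, with short transcripts, both came down to 0.69 (edgeR adjusted p = 0.0282 and 0.0285), and RAB21, with the longest transcript of the family at 15546 bases, went up to 1.79 (0.00425).

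The correction also called 10 members that the uncorrected fit did not. RAB14 (0.94), RAB5B (0.80), RAB22A (1.10), RAB2A (1.01), RAB33B (1.09), RAB12 (0.56), RAB29 (0.68) and RAB18 (0.66) were higher, and RAB11B (-1.14) and RAB37 (-1.25) lower. Their edgeR adjusted p ran from 0.00494 for RAB2A to 0.0286 for RAB37. The sign of RAB18 turned with the correction, from -0.02, as did that of 10 other members, none of them called in either fit. RAB1B came to 0.00, RAB30 to -0.24 and RAB42 to 0.07. After it the RAB genes correlated with length at 0.39 and with GC content at -0.35, where all genes were at -0.01 and 0.01. The replicates of the treated group differed along the same properties, with replicate 2 minus replicate 1 at 0.37 with length and -0.62 with GC content across the RAB genes. What part of each fold change comes from length or GC content was not tested.

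**Figure D3:**
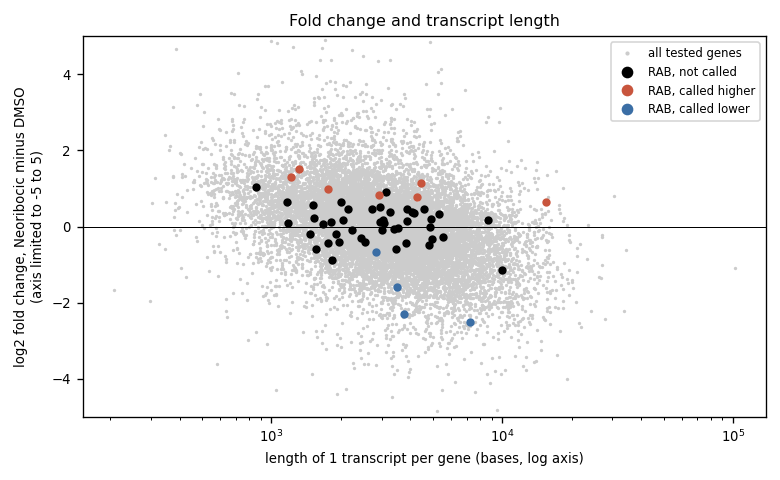
Log2 fold change against the length of 1 transcript per gene (log axis) for all tested genes (grey) and the 55 tested RAB genes. Over all genes the values decline with length, while RAB21, at 15546 bases and 0.64, lies above 0; 62 genes fall outside the axis of -5 to 5.

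Paralogues that share a RAB number were compared by their ratio in each library. RAB27B and RAB27A were nearly equal per kilobase with DMSO, at ratios of 0.884 and 1.02, and stood at 0.250 and 0.242 with Neoribocic. RAB27A itself was at 30.4 and 23.0 CPM with DMSO and 13.3 and 22.5 with Neoribocic (-0.58 ± 0.30, edgeR adjusted p = 0.155). The ratio of RAB9B to RAB9A went from 0.0957 and 0.0802 to 0.0137 and 0.0181, with RAB9A at 0.17 ± 0.22. Both ratios were lower in each treated library than in each control, and stayed lower with the correction, by differences in log2 ratio of -1.57 and -2.04.

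RAB3D over RAB3A was 1.49 and 1.14 with DMSO and 1.86 and 2.0 with Neoribocic, with RAB3A at 1.75 and 1.77 CPM and then 2.02 and 2.08 (0.22 ± 0.34, edgeR adjusted p = 0.617). In this pair too the groups did not overlap.

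For RAB8A and RAB8B the ratios overlapped. RAB8B over RAB8A was 0.214 and 0.145 with DMSO and 0.173 and 0.278 with Neoribocic, and RAB8B had a log2 fold change of -0.33 ± 0.26. With the correction the difference in mean log2 ratio was 1.19, with RAB8B at 0.31, not called, and RAB8A at -0.88. RAB2A pointed the same way as RAB2B, at 0.45 ± 0.20 (edgeR adjusted p = 0.0942), and their ratios were 0.258 and 0.368 with DMSO and 0.439 and 0.369 with Neoribocic. RAB1B over RAB1A was 4.92 and 5.88 with DMSO and 13.1 and 8.04 with Neoribocic, but the difference in mean log2 ratio of 0.93 came to 0.02 with the correction. Of 21 paralogue pairs, 10 had ratios that did not overlap between the groups, where 75.1% of single tested genes did not. The ratios are descriptions without a test.

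**Figure D4:**
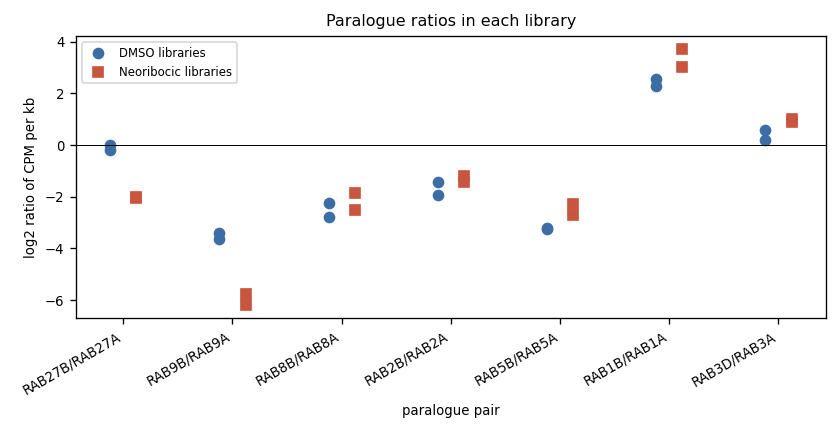
Log2 ratio of CPM per kilobase of paralogue pairs in each library (circles DMSO, squares Neoribocic). The RAB27B to RAB27A and RAB9B to RAB9A ratios are lower in both treated libraries, and those of RAB8B to RAB8A overlap.

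Promoter sequence was looked at because members of one family moved in opposite directions. RefSeq's table (GRCh38.p14) held a start for 50 of the 63 members, of which 45 were tested, and the 250 bases before the first listed start were searched on both strands. The E-box CACGTG, the core of the element shared by many lysosomal genes, was present for 5 tested members, or 11.1%, against 8.8% of the promoters of all tested genes. Of these RAB24 and RAB21 were called higher, while RAB4A, RAB5A and RAB31 were not called. The 30 bases around each are shown 5′ to 3′ on the gene's strand, with the E-box in capitals.
RAB24 (chr5:177303731-177303760, minus strand): ggcgcccgcgcCACGTGaccttgcggcccc
RAB21 (chr12:71754832-71754861, plus strand): gcaccggcgctCACGTGacccgaggtgtga
RAB5A (chr3:19946965-19946994, plus strand): actcgcagggtCACGTGacatcctgcctcg
RAB4A (chr1:229270998-229271027, plus strand): cccagcccgcgCACGTGcttccggcgcgcg
RAB31 (chr18:9708230-9708259, plus strand): cggccggcggcCACGTGacccaccgcggcg

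The same E-box therefore stood before genes that were called and genes that were not. The GC box GGGCGG was present for 82.2% of tested members against 66.5% of all tested genes with a promoter, including 6 of the 7 members that rose, 3 of the 3 listed members that fell and 28 of the 35 not called. The C/EBP-ATF element core TGATGNAA was found for RAB28 and the AP-1 site TGANTCA for RAB5B, neither of which was called, and the cAMP response element TGACGTCA for no tested member. Before other listed starts TGANTCA was also found for RAB34, called higher, for RAB27B, called lower, and for RAB13 and RAB27A, neither of them called. The cell cycle element TTTGAA was present for 13.3% of tested members and 8.5% of all, in none of the members called, before any listed start. A match is a description of these letters in this window.

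The genes that load, switch off, anchor and read the RABs were described by 6 lists, which together held 147 tested genes. Each fit that left out 1 library called a smaller share of all tested genes, which applies beside the counts given for these lists. Of 147 tested regulators and effectors 27 rose and 49 fell, or 51.7%, with a median log2 fold change of -0.31, against 40.4% called and a median of 0.01 for all tested genes. The counts moved with the scaling, to 30 higher and 38 lower under upper-quartile factors and 30 and 30 under library totals. All tested genes moved too, from 2650 higher and 2960 lower to 3329 and 2532, and to 3168 and 2149. Under these scalings the medians were -0.18 and -0.13, against 0.13 and 0.18 for all tested genes. With the length and GC correction 23 were higher and 33 lower, or 38.1% against 36.1%, and the median was -0.05. Without Neoribocic replicate 1 the calls were 11 and 21, without DMSO replicate 1 they were 17 and 31, and without DMSO replicate 2 they were 13 and 38. Without Neoribocic replicate 2 they were 17 and 35.

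In the group that anchors and recycles RAB proteins 4 of 9 genes fell and none rose with TMM scaling and all 4 libraries. The falls are 44.4% of the group, beside 21.3% of all tested genes. GDI2, which extracts GDP-bound RABs from membranes, was at 328.9 and 295.4 CPM with DMSO and 86.7 and 121.7 with Neoribocic (-1.58 ± 0.22, edgeR adjusted p = 0.00158). CHML, one of the escort proteins of prenylation, fell from 128.0 and 75.4 CPM to 14.4 and 21.0 CPM (-2.52 ± 0.32, edgeR adjusted p = 0.00147, corrected -1.62). RABIF, a chaperone of nucleotide-free RABs, fell by 1.26 on the log2 scale and CHM, the other escort gene, by 0.81. CHM lost its call with the correction, at -0.10 (edgeR adjusted p = 0.636), and without DMSO replicate 1 (0.145), DMSO replicate 2 (0.0745) or Neoribocic replicate 1 (-0.53, 0.229). The prenyl transferase genes RABGGTA and RABGGTB were both at 0.06, and RABGGTA was at -0.52 with the correction.

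Among 43 exchange factors 10 rose and 12 fell, with a median of -0.16. With library totals this median was 0.01, where that of all tested genes went from 0.01 to 0.18. The 10 and 12 are 23.3% and 27.9%, beside 19.1% and 21.3% of all tested genes. Library totals gave 12 and 5, and upper-quartile factors 11 and 8. Over all tested genes these scalings gave 3168 and 2149, and 3329 and 2532. Without Neoribocic replicate 1 the calls were 4 and 4, without DMSO replicate 2 they were 5 and 7, without DMSO replicate 1 they were 7 and 7 and without Neoribocic replicate 2 they were 7 and 6. HPS1 and HPS4, the subunits of the exchange factor for RAB32 and RAB38, rose by 0.86 and 0.92 (edgeR adjusted p = 0.0137 and 0.0101), beside the rise of RAB32. HPS1 lost its call without DMSO replicate 2 (0.0668) or Neoribocic replicate 1 (0.0749), and HPS4 without Neoribocic replicate 2 (0.0545). TRAPPC5, a subunit of the TRAPP complexes that act on RAB1, rose by 1.49, and DENND6B, an exchange factor for RAB14, rose by 1.97 from 1.2 ± 0.626 to 4.70 ± 0.276 CPM (SD, n = 2). DENND4A and DENND4C, exchange factors for RAB10, fell by 1.51 and 1.43 (corrected -0.74 and -0.66), RIN2, an exchange factor for RAB5, by 1.10 and DENND1B, for RAB35, by 1.24. DENND1B did not pass without Neoribocic replicate 1 (edgeR adjusted p = 0.0665).

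Of 35 TBC-type and other GAPs 3 rose and 11 fell, a median of -0.33. That is 8.57% and 31.4%, beside 19.1% and 21.3% of all tested genes. Without Neoribocic replicate 1 the calls were 0 and 2, without DMSO replicate 2 they were 0 and 9, without each of the other libraries 1 and 7, and with library totals 3 and 6. The correction gave 2 and 7. TBC1D4, a GAP of RAB10 and RAB8A known from insulin-driven exocytosis, fell from 110.2 and 88.6 CPM to 28.1 and 32.1 CPM (-1.72 ± 0.22, edgeR adjusted p = 0.00116). TBC1D2B, TBC1D23 and RABGAP1 fell by 1.16, 1.24 and 1.11. The correction brought TBC1D23 to -0.73 and RABGAP1 to -0.52, and both lost their call without Neoribocic replicate 1 (edgeR adjusted p = 0.0503 and 0.0532). The GAPs that rose were TBC1D10A (1.65), EVI5L (0.64) and TBC1D16 (0.70), of which none passed without DMSO replicate 2 (edgeR adjusted p = 0.113, 0.0770 and 0.198) or without Neoribocic replicate 1 (0.0688, 0.172 and 0.181). Without DMSO replicate 1 TBC1D10A and EVI5L did not pass (0.105 and 0.122), nor without Neoribocic replicate 2 EVI5L and TBC1D16 (0.0543 and 0.0884). With the correction TBC1D10A was at 0.94 and EVI5L at 0.14 (edgeR adjusted p = 0.0664 and 0.432). With the replicate block EVI5L did not pass (edgeR adjusted p = 0.0552). TBC1D10A was also at 0.94 without Neoribocic replicate 1. TBC1D16 was at 0.46 without DMSO replicate 2.

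Endosomal effectors rose in 4 of 17 cases and fell in 8, with a median of -0.44. That is 23.5% and 47.1%, beside 19.1% and 21.3% of all tested genes. Without DMSO replicate 1 the calls were 3 and 5, without Neoribocic replicate 1 they were 2 and 5 and without DMSO replicate 2 they were 2 and 7. Library totals and the correction gave 4 and 5 each. EEA1, the RAB5-bound tether of early endosomes, fell from 99.5 and 91.2 CPM to 16.8 and 23.1 CPM (-2.26 ± 0.24, edgeR adjusted p = 7.29e-04, corrected -1.27). ZFYVE16, PIK3C3 and RABEP1 fell by 1.70, 1.22 and 1.0, calls that the correction ended (-0.81, -0.25 and -0.31, with edgeR adjusted p = 0.148, 0.231 and 0.123). RAB11FIP5, which links RAB11 to sorting, rose from 66.6 and 63.6 CPM to 172.1 and 152.6 CPM (1.32 ± 0.19, edgeR adjusted p = 0.00170). RBSN and MICALL1 rose by 0.92 and 0.73. RBSN did not pass without DMSO replicate 2 (edgeR adjusted p = 0.0522), and MICALL1 did not when any library was left out (0.0503 to 0.0931), with its corrected value at 0.42. RAB11FIP4 had 0 counts in both DMSO libraries and 19 and 16 with Neoribocic, at least 8.85-fold higher against a floor of 3 counts over the DMSO group. It lost its call without Neoribocic replicate 1. At this bound it still lay above the list's median, which therefore could not move from -0.44.

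Secretory effectors fell in 11 of 22 cases and rose in 2, with a median of -0.72, the lowest of the 6 lists. That is 50% lower and 9.09% higher, beside 21.3% and 19.1% of all tested genes. Without Neoribocic replicate 1 the list had 6 lower. GOLGB1 (giantin), a Golgi tether, fell from 144.7 and 86.5 CPM to 21.0 and 24.7 CPM (-2.34 ± 0.28, edgeR adjusted p = 0.00109, corrected -1.34). SYTL2, an effector of RAB27 in vesicle docking, went from 12.8 and 12.3 CPM to 3.51 and 4.09 CPM (-1.72 ± 0.26, edgeR adjusted p = 0.00190), beside the fall of RAB27B. The myosin gene MYO5A, whose motor moves RAB27 and RAB11 vesicles, fell by 2.16 and the Golgi tether gene GCC2 by 1.64 (corrected -1.22 and -0.73). GOLGA2 (GM130), a RAB1 effector, rose from 107.0 and 115.6 CPM to 207.9 and 210.4 CPM, and MICAL1 by 1.16.

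Lysosomal effectors rose in 8 of 22 cases and fell in 4, and their median of 0.24 was the only positive one among the 6 lists. That is 36.4% and 18.2%, beside 19.1% and 21.3% of all tested genes. GCC1 was counted in this list and GCC2 among the secretory effectors, and other placements of genes were not tried. WDR91 and PLEKHM1, which act with RAB7 in endosome maturation and lysosome fusion, rose by 1.32 and 0.95 (edgeR adjusted p = 0.00430 and 0.00601). PLEKHM1 was at 54.1 and 52.9 CPM with DMSO and 106.3 and 100.9 with Neoribocic. RUBCN and GCC1 rose by 0.81 and 1.0, and both lost their call without DMSO replicate 2 (edgeR adjusted p = 0.0582 and 0.0730) or Neoribocic replicate 2 (0.0600 and 0.0565), GCC1 also without Neoribocic replicate 1 (0.0560) and RUBCN with the correction (0.51, 0.0543). VPS35, of the retromer that RAB7 recruits, fell from 188.6 and 156.3 CPM to 58.7 and 76.8 CPM (-1.35, corrected -0.54). TBC1D5, LRRK2 and VPS41 fell by 1.0, 1.27 and 0.88, and none passed with the correction (-0.25, -0.31 and -0.10, edgeR adjusted p = 0.195, 0.380 and 0.645) or without Neoribocic replicate 1 (0.0613, 0.164 and 0.163). LRRK2 and VPS41 also did not pass without DMSO replicate 1 (0.0849 and 0.157, VPS41 at -0.57). Leaving out any 1 library lowered the number of rises in this list, and also that over all tested genes. Rises did not outnumber falls without DMSO replicate 2 or without Neoribocic replicate 2. With any 1 library left out the list's median was 0.25 to 0.41, and with the correction the list had 7 rises and 1 fall.

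**Figure D5:**
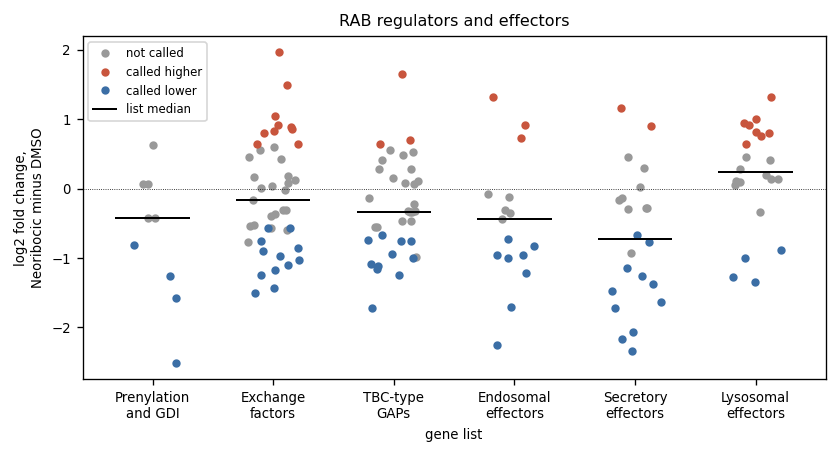
Log2 fold change (Neoribocic minus DMSO) of the tested RAB regulators and effectors, 1 point per gene, with a line at each list's median; RAB11FIP4, at 0 counts with DMSO, is not drawn. With TMM scaling and all 4 libraries, falls outnumber rises in each list but the lysosomal effectors. With library totals exchange factors have 12 rises and 5 falls, where all tested genes have 3168 and 2149. Secretory effectors have the lowest median at -0.72.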

How the data were processed

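For 4 mRNA libraries the authors deposited raw, unnormalized counts by Ensembl gene. The aligner, the counter and the use of strand are unknown here. Mouse builds (GRCm38, mm10) are named in the submitters' processing notes although the IDs are human, so coordinates are given only for RefSeq promoter sequence. Of 20263 IDs 20148 were in the gene name table and 76 more in GENCODE 29, and all 63 members were protein-coding in GENCODE 29. The table had 0 columns without a sample.

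Counts were tested with edgeR 4.0.16 (R 4.3.3): filterByExpr by group, TMM, a robust quasi-likelihood fit with group as its only term, and Benjamini-Hochberg adjustment across every tested gene (threshold 0.05). The SE is the log2 fold change divided by the square root of F. Per-kilobase levels and the correction (mgcv 1.9-3, a smooth surface of log2 CPM, prior count 3, on GC content and length, per library, entered as offsets) used 1 GENCODE transcript per gene. Replicates differed by more than counting noise in 74.6% (DMSO) and 68.6% (Neoribocic) of genes, so none was a copy.

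Members, lists, tests and alternatives were chosen with earlier results of these data known. Named were all called members, the 2 nearest the threshold on each side, paralogues of called members, and up to 4 genes per direction and list with the smallest p. The alternatives were RLE, upper-quartile and total scaling, other filters, DESeq2 1.42.0, limma-voom (limma 3.58.1), no robust option, a replicate block, the correction, halved counts, no mitochondrial genes, thinning, single libraries left out and a threshold of 0.01. List symbols RAB45, and RABENOSYN and ZFYVE20 (older names of RBSN), matched no row. A gene of the regulator lists is not reported here.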

Additional observations from a re-analysis of the deposited data

How the results depend on the processing

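Members under 1 CPM, such as RAB7B, rest on few counts, and small counts were mostly even (62.3% to 65.4% below 20, against 50.3% to 51.3% from 20 to 200), as when both mates of a pair are counted, so the totals may overstate the precision. Over the tested RAB genes and alternatives, 964 of 1037 values kept their side of the threshold, 28 lost a call, 43 gained one and 2 passed with the opposite sign: RAB18 reached 0.66 with the length and GC correction, and 0.66 with that and the block. The cause of these changes was not tested.

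The replicate numbers were not shown to pair the libraries (same-numbered deviations correlated at -0.0548 over 13879 genes). With the replicate block RAB genes were 6 higher and 5 lower and all genes 2677 and 2917; RAB21 lost and RAB30 gained a call among RAB genes, endosomal calls fell to 1, and the RAB and endosomal medians were 0.16 and 0.33. Block and correction together gave 16 higher RAB genes, calls of 7 endosomal, 8 secretory, 5 lysosomal and 2 other-site genes, and medians of 0.19 (RAB), 0.00 (secretory), 0.16 (lysosomal) and -0.05 (regulators and effectors).

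With the correction alone 13 RAB genes were higher, 6 endosomal and 5 lysosomal genes were called, and the medians were 0.20 (RAB), 0.00 (secretory), 0.15 (lysosomal) and -0.05 (regulators and effectors). Upper-quartile factors gave 12 higher RAB genes, 4 endosomal and 2 other-site calls, and medians of 0.26 (RAB), 0.34 (endosomal), 0.19 (secretory), 0.16 (lysosomal), 0.27 (other sites) and -0.18 (regulators and effectors). Library totals gave 2 other-site calls, 30 higher and 30 lower regulators and effectors, and medians of 0.29, 0.36, 0.18, 0.22, 0.33 and -0.13 in that order. The CPM filter gave 2 other-site calls and medians of 0.17 (RAB), 0.28 (endosomal), 0.02 (secretory) and 0.18 (lysosomal). Limma-voom gave medians of 0.16 (RAB) and 0.32 (endosomal), and no low-count filter 0.17 (RAB). Halved counts gave 2 other-site calls and medians of 0.17 (RAB), 0.02 (secretory) and 0.17 (lysosomal), and thinning 2 other-site calls and medians of 0.01 (secretory) and 0.16 (lysosomal). At a threshold of 0.01 there were 3 higher RAB genes, 1 endosomal and 1 secretory call, 9 higher and 27 lower regulators and effectors, and 1138 higher and 1745 lower genes in all.

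With each library left out in turn, higher RAB calls ran from 2 to 5 and lower ones from 3 to 7, endosomal calls from 1 to 2, secretory from 1 to 4, and other-site from 0 to 3, while lysosomal calls were 3 throughout. The medians ran from 0.11 to 0.20 (RAB), 0.19 to 0.26 (endosomal), -0.07 to 0.05 (secretory), 0.14 to 0.23 (lysosomal), 0.19 to 0.35 (other sites) and -0.28 to -0.21 (regulators and effectors). Regulators and effectors called higher ran from 11 to 17 and lower from 21 to 38, and all genes from 1001 to 2215 and from 1467 to 2382; in these fits the lone library of a group is assumed to vary like the other group.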
